A study of Mus musculus with 4 samples.

Results

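Genes of the growth hormone and insulin-like growth factor (IGF) axis, 10 of the 18193 genes with a single symbol on the array, were followed in regenerating mouse liver. They were taken by symbol: Ghr, Igf1, Igfals, Igfbp1, Igfbp2, Igfbp3, Igfbp4, Stat5b, Socs2 and Cish, which together had 27 of 45101 probe sets. The mice were BALB/c nu/nu, athymic animals without mature T cells, and had all received 23 injections of carbon tetrachloride, a hepatotoxin, at 0.25 ml/kg. The OGFRL1 group (2 arrays) had 1000000 human bone marrow mesenchymal stem cells made to express OGFRL1 placed in the spleen, and the EGFP group (2 arrays) had the same number of such cells expressing the fluorescent protein EGFP. All mice underwent partial hepatectomy on day 21, and liver was taken 8 days after it. A broken-off phrase of the labels also names albumin in buffered saline before the last toxin injection, without saying which mice it concerns. The labels used here give neither the sex nor the age of the mice, do not say whether each array is 1 mouse, and include no liver without transplanted cells or without hepatectomy. Both groups therefore share the toxin, the surgery and the human cells, and the array was designed for mouse transcripts; whether human transcripts bound its probes was not tested.

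Growth hormone acts on hepatocytes through its receptor, Ghr. The receptor activates the kinase JAK2 and the transcription factor STAT5B, which induces Igf1 and Igfals as well as the feedback inhibitors Socs2 and Cish. The liver secretes most of the IGF1 in blood, where it travels bound to IGFBP3 and to the acid-labile subunit encoded by Igfals. Igfbp1 and Igfbp2 bind IGFs outside that large complex, and Igfbp1 is known as a gene that insulin represses through the transcription factor FOXO1.

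Promoter sequences were read for the 9 members present in a RefSeq table of build GRCm38.p6, which gave 14 windows from 250 bases before an annotated start to 50 bases from the start on. Igfals, Cish and Igfbp1 are shown because their windows held a motif searched for and because they stand for the STAT5 and the insulin side of the axis. The STAT5 consensus TTCNNNGAA, a palindrome, occurred in 8.3% of 32851 windows of all genes. The insulin response cores CAAAACA and CAAAATA were searched on both strands and do not overlap each other in the sequence shown. They occurred in 6.28% and 4.36% of windows, and both together in 0.472%. Capitals mark the matches, and all 3 genes lie on the plus strand. Stretches of the windows are printed: for Igfals and Igfbp1 the 250 bases before the start, and for Cish the 100 bases before the start and the first 30 bases from it on.
Igfals, first of 3 starts, chr17:24877594-24877843: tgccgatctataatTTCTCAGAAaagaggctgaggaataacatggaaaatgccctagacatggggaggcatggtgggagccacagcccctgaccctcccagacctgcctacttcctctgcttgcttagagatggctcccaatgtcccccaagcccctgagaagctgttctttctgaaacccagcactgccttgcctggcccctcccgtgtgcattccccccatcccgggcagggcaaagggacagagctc
Cish, chr9:107296559-107296688: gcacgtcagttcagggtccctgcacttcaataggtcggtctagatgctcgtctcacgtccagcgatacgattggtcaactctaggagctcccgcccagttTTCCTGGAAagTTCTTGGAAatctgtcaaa
Igfbp1, chr11:7197537-7197786: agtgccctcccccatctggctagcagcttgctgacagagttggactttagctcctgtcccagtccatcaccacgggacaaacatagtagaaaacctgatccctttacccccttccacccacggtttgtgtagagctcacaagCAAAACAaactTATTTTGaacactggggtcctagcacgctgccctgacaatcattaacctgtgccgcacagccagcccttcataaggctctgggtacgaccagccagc

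In the Igfals window the STAT5 letters lay at positions -236 to -228 from the start, and the window of its second start held another match at -58 to -50. The Cish window held 2 matches, from 1 to 9 and from 12 to 20 counted from the start site itself, a number reached by 0.457% of windows. In Igfbp1 the core CAAAACA lay at -108 to -102 and the other core, on the minus strand, at -97 to -91. The windows of Ghr, Igf1, Igfbp2, Igfbp3, Igfbp4 and Stat5b held none of these letters, which says nothing of sites elsewhere. A match is a string of letters and was not measured as a bound site.

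Expression was compared as the deposited MAS5 signal, a brightness per probe set on a linear scale. The deposited arrays had already been scaled to a common level. Each gene was represented by its brightest probe set, and the difference (OGFRL1 minus EGFP) was tested with limma on log2(signal + 3.51) over all 11942 genes whose mean signal reached 11.6. All 10 members passed that minimum. None of them passed limma's threshold of an adjusted p of 0.05, where 0.511% of all genes did, 0.36% higher and 0.151% lower in OGFRL1 livers. An unadjusted p under 0.05 was found for 6 of them, 2 higher and 4 lower, against 15.3% of all genes, 9.01% higher and 6.28% lower. The 2 groups did not overlap in 8 of the 10 genes, with the OGFRL1 arrays below in 6 and above in 2, against 47.5% of all genes, 20.5% below and 27% above. The log2 fold change was below 0 in 7 members, against 44.4% of all genes, and its median was -0.32 over the members and 0.04 over all genes tested. Signals of different probe sets are not comparable as amounts, so levels are set side by side only within a probe set. Nothing in the labels says that the 2 arrays of a group are separate mice, so the p-values rest on a spread that may be technical. An exact 2-sided permutation test of 2 against 2 arrays cannot go below p = 0.333.

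The bright end of the arrays and the spike-in controls were lower in the OGFRL1 group. The 4 Cre spike-in probe sets, for RNA that the standard protocol adds to every array, had a mean log2 fold change of -0.43. The 14 BioB, BioC and BioD probe sets had -0.33. Their geometric mean signals, 347 to 498, were not at the bright end, and genes from 100 to 1000 had a median of 0.04. Among the 978 genes with mean signals from 1000 to 5000 the median was -0.13, and among the 134 brighter ones it was -0.43. The fold changes of the bright members are therefore given beside these values. The part of these shifts in any member, bright or dim, was not tested.

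**Figure D1:**
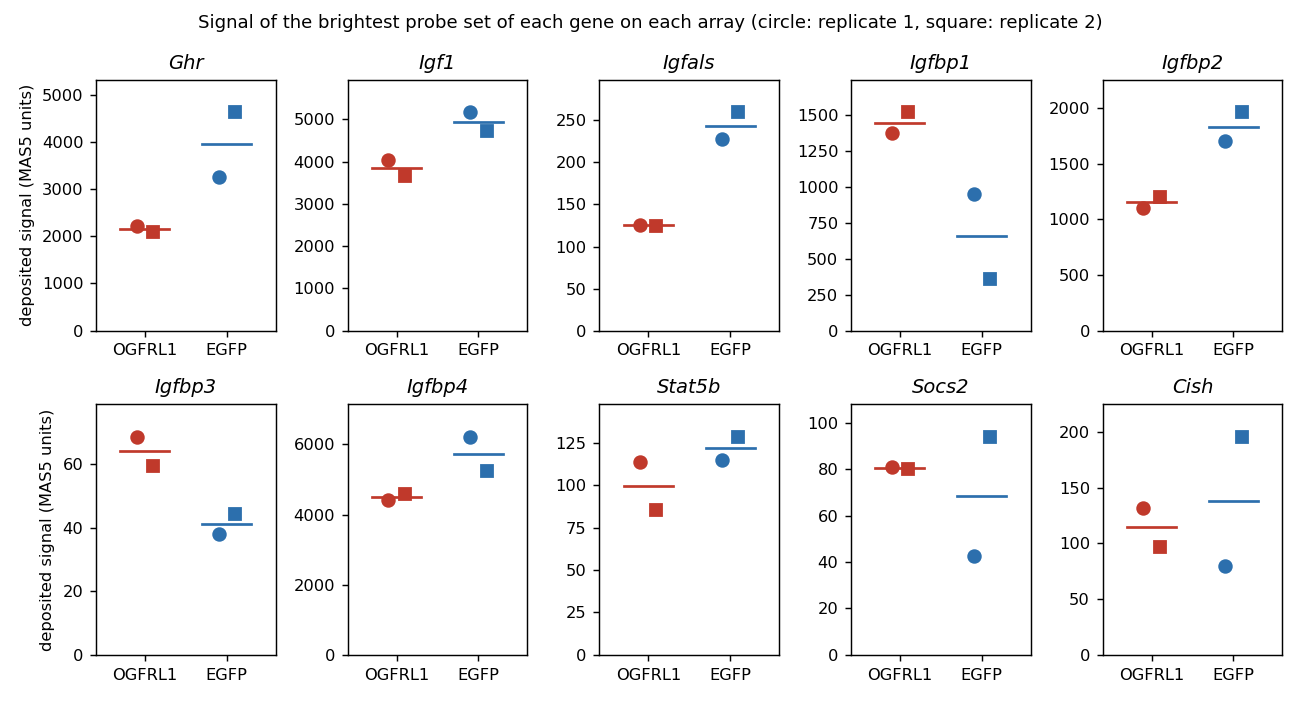
Deposited signal (MAS5 units, each panel with its own axis from 0) of the brightest probe set of the 10 genes on the 2 OGFRL1 arrays (red) and the 2 EGFP arrays (blue); lines are group means. Ghr, Igf1, Igfals, Igfbp2, Igfbp4 and Stat5b had both OGFRL1 arrays below both EGFP arrays, Igfbp1 and Igfbp3 had them above, and Socs2 and Cish overlapped.

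Ghr, the growth hormone receptor, had signals of 2219.9 and 2099.6 on the OGFRL1 arrays, against 3265 and 4623 on the EGFP arrays. The groups did not overlap, and the OGFRL1 arrays lay close together while the EGFP arrays were 1.42-fold apart. Means were 2159.7 ± 85.1 in OGFRL1 livers and 3944 ± 961 in EGFP livers (SD, n = 2 each), a log2 fold change of -0.85 ± 0.19 (SE; 95% interval -1.30 to -0.39) with a limma adjusted p of 0.112. The other two Ghr probe sets lay the same way. One gave 946 and 957 in OGFRL1 livers, against 1684 and 2381 in EGFP livers, and a fold change of -1.07 ± 0.19 in a fit of all 20238 probe sets past the minimum (limma adjusted p = 0.0741). The other, dimmer one gave 62.7 and 55.3 in OGFRL1 livers, against 93.0 and 178 in EGFP livers (-1.09 ± 0.30, limma adjusted p = 0.192). All 3 probe sets thus had both OGFRL1 arrays below both EGFP arrays. In that fit 45.9% of probe sets did not overlap between the groups, counting both directions. Over all genes at their brightest probe set, 20.5% lay below in this way. They read the same 4 RNA samples and are not replicates. Ghr lay among the lower values of its brightness range: 2.97% of the 978 genes with signals from 1000 to 5000 had a lower fold change.

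Stat5b, the transcription factor below the receptor in hepatocytes, had signals of 114 and 85.2 in OGFRL1 livers, against 115 and 128 in EGFP livers. The first OGFRL1 array was within 1 signal unit of the first EGFP array, so the groups were separate only narrowly. Its log2 fold change was -0.29 ± 0.20 (limma adjusted p = 0.553; 95% interval -0.77 to 0.19). A second, dim Stat5b probe set had 20.6 and 9.39 in OGFRL1 livers, against 19.9 and 9.65 in EGFP livers, and did not separate the groups.

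Socs2 and Cish, the inhibitors that STAT5 induces, did not separate the groups on their brightest probe sets. Socs2, which dampens growth hormone signalling, had 81.0 and 80.0 in OGFRL1 livers, against 42.7 and 93.9 in EGFP livers (log2 fold change 0.32 ± 0.35, 95% interval -0.51 to 1.16, limma adjusted p = 0.72). Cish, a related inhibitor, had 132 and 96.9 in OGFRL1 livers, against 79.6 and 196 in EGFP livers (-0.14 ± 0.40, 95% interval -1.11 to 0.82, limma adjusted p = 0.904). Both intervals include a 2-fold change in one direction at least, so a difference of that size is not excluded for either gene. A second Socs2 probe set, at 62.3 and 82.4 in OGFRL1 livers and 54.3 and 97.5 in EGFP livers, also overlapped. Another, very dim Socs2 probe set had 10.3 and 12.3 in OGFRL1 livers, against 19.1 and 14.4 in EGFP livers. It did not overlap and lay opposite to the brightest one (-0.45 ± 0.33, limma adjusted p = 0.606). The remaining 3 Socs2 probe sets did not reach the minimum signal, with means of 3.12 to 7.57.

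Both inhibitors were far apart between the EGFP arrays. EGFP 2 had 2.46 times the Cish signal and 2.2 times the Socs2 signal of EGFP 1, along with 1.42 times the Ghr signal. Over all genes tested, 2.7% were at least as far apart between the EGFP arrays as Cish, 4.41% as Socs2 and 22.6% as Ghr. On the OGFRL1 arrays Socs2 differed by 0.02 on the log2 scale and Ghr by 0.08, less than the median gene (0.17). Cish was apart there too, by 0.43 with OGFRL1 1 the higher, a distance that 16% of genes reached. The same EGFP arrays differed in markers of Kupffer cells and macrophages, whose summed signal over 7 markers was 9376 in EGFP 1 and 3390.4 in EGFP 2, beside 4460.3 and 7215 on the OGFRL1 arrays. Its part in the spread of the inhibitors was not tested.

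Igf1, the growth factor itself, had signals of 4043 and 3665 in OGFRL1 livers, against 5161 and 4730.4 in EGFP livers, on its brightest probe set. The groups did not overlap, but the distance was small: the log2 fold change was -0.36 ± 0.14 (95% interval -0.70 to -0.02, limma adjusted p = 0.295), closer to 0 than the -0.43 of the Cre spike-ins. It lay below the median of its brightness range (-0.13), in which 22.9% of the 978 genes had a lower fold change. Where 45.9% of all probe sets did not overlap, counting both directions, 3 of the 4 of Igf1 had both OGFRL1 arrays below both EGFP arrays. Their fold changes ran from -0.57 to -0.18. The remaining one, at 1652 and 1802 in OGFRL1 livers and 1502 and 1837 in EGFP livers, overlapped and had a fold change of 0.05 ± 0.16. The probe sets of Igf1 therefore did not give 1 size or 1 direction.

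Igfals, the acid-labile subunit that holds IGF1 and IGFBP3 in the circulating complex, had signals of 126 and 124 in OGFRL1 livers, against 228 and 260 in EGFP livers. Both OGFRL1 arrays were at about the same level, and both EGFP arrays were well above it. Means were 125 ± 1.55 in OGFRL1 livers and 244 ± 22.1 in EGFP livers (SD, n = 2 each), a ratio of 0.513. The log2 fold change of -0.94 ± 0.15 (95% interval -1.31 to -0.57) had the lowest adjusted p of the 10 genes, 0.0581 by limma, which missed the threshold. Igfals ranked 127th of the 11942 genes by the size of its moderated t, and 0.923% of the 5203 genes with signals from 100 to 1000 had a lower fold change. Igfals has 1 probe set, and the median of that signal range was 0.04.

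**Figure D2:**
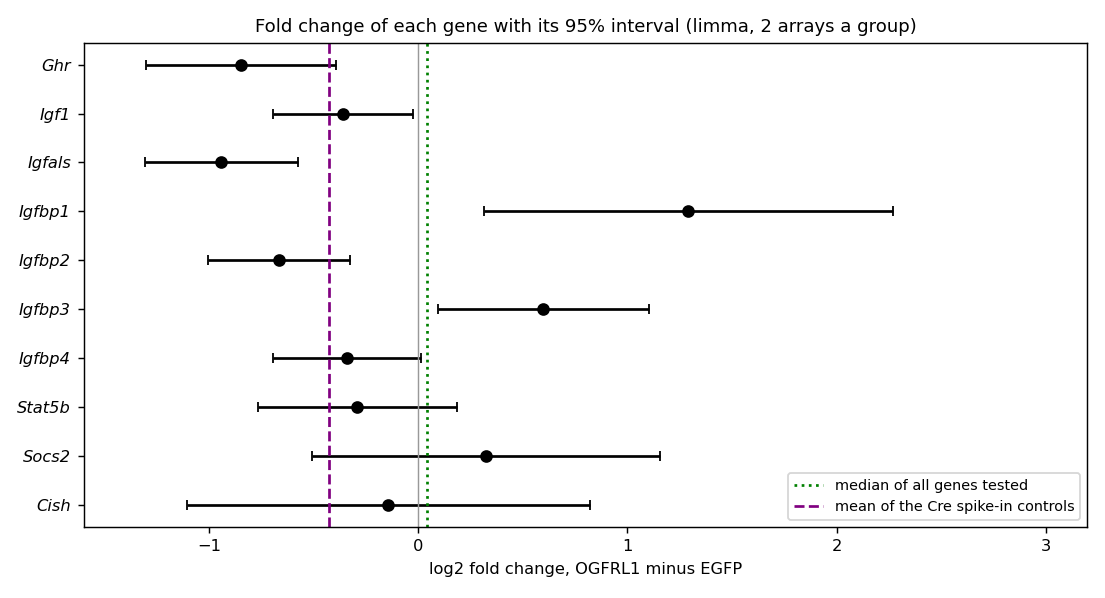
Log2 fold change (OGFRL1 minus EGFP) of the brightest probe set of each gene, with its 95% interval from limma; the dotted line is the median of the 11942 genes tested (0.04) and the dashed line the mean of the Cre spike-ins (-0.43). The points of Ghr, Igfals and Igfbp2 lie left of both lines and those of Igfbp1, Igfbp3 and Socs2 right of both. The intervals of only Igfals, Igfbp1 and Igfbp3 leave out the spike-in mean.

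The IGF binding proteins went different ways. Igfbp1, a liver protein that binds free IGF1, had signals of 1369.9 and 1516 in OGFRL1 livers, against 951 and 361 in EGFP livers. Both OGFRL1 arrays were above both EGFP arrays, but the EGFP arrays themselves were 2.63-fold apart, more than the 2.2-fold ratio of the group means. Only 1.99% of all genes were that far apart between the EGFP arrays. The log2 fold change was 1.29 ± 0.41 (95% interval 0.31 to 2.27, limma adjusted p = 0.211). Among the 978 genes with signals from 1000 to 5000, which had a median of -0.13, 0.307% had a higher fold change. Igfbp1 lay near the lower edge of that range, with a mean signal of 1049.5. Genes from 100 to 1000 had a median of 0.04.

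Igfbp2, which hepatocytes also secrete, had signals of 1099 and 1201 in OGFRL1 livers, against 1703 and 1958 in EGFP livers. The groups were well separated, with means of 1150.3 ± 72.0 in OGFRL1 livers and 1831 ± 181 in EGFP livers (SD, n = 2 each). The log2 fold change was -0.67 ± 0.14 (95% interval -1.0 to -0.33, limma adjusted p = 0.100). In its brightness range 5.32% of genes had a lower fold change. It was thus opposite in sign to Igfbp1; the difference between these 2 fold changes was not tested.

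Igfbp3, the carrier of IGF1 in the circulating complex and in liver mainly a product of cells other than hepatocytes, had signals of 68.5 and 59.3 in OGFRL1 livers, against 37.9 and 44.3 in EGFP livers. Its log2 fold change was 0.60 ± 0.21 (95% interval 0.09 to 1.10, limma adjusted p = 0.25), and 10.8% of the 5627 genes dimmer than 100 had a higher one. A second probe set, at 58.8 and 55.4 in OGFRL1 livers and 54.8 and 39.6 in EGFP livers, also separated the groups, but narrowly (0.27 ± 0.23, limma adjusted p = 0.653).

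Igfbp4, an inhibitor of IGF action, had 6 probe sets, all past the minimum and all with a fold change below 0, from -0.45 to -0.15. The brightest had 4429 and 4598 in OGFRL1 livers, against 6218 and 5247 in EGFP livers (-0.34 ± 0.15, 95% interval -0.69 to 0.02, limma adjusted p = 0.345). The groups did not overlap in 5 of the 6. Among the 134 genes brighter than 5000, however, 66.4% had a lower fold change than Igfbp4. That rank depends on the cut, since the mean signal of this probe set was 5123. Genes from 1000 to 5000 had a median of -0.13 and a lower quartile of -0.34. The next brightest Igfbp4 probe set, at a mean signal of 4629, had -0.45.

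**Figure D3:**
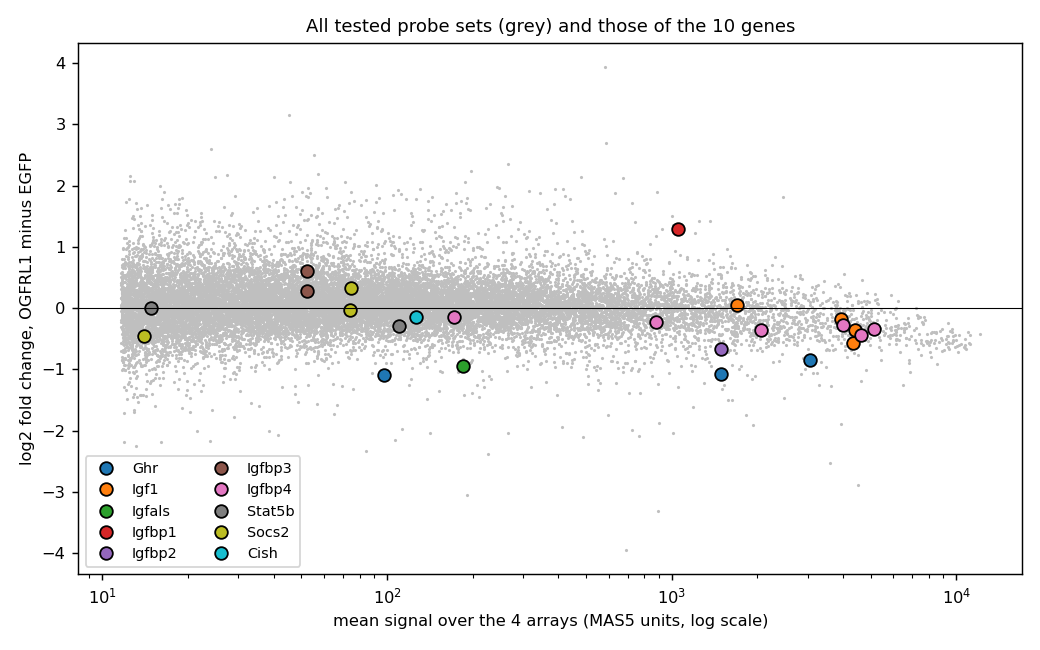
Log2 fold change (OGFRL1 minus EGFP) against mean signal (MAS5 units, log axis) for all 20238 probe sets tested (grey) and the 24 of the 27 probe sets of the members that reached the minimum (coloured). The 3 Ghr probe sets lie together near -1 over a wide range of signals, the grey cloud and the Igf1 and Igfbp4 points bend below 0 at the bright end, and Igfbp1 stands above it.

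Of the 24 probe sets of the members that reached the minimum, 18 had a fold change below 0, against 45% of all probe sets tested. Limma's threshold was passed by 0 of them, where 0.336% of all probe sets did, and 10 had an unadjusted p under 0.05, where 14% of all probe sets did. The array left out decided the calls. When either EGFP array was left out, Ghr, Igfals, Igfbp1 and Igfbp2 passed the threshold, and Igfbp4 passed without EGFP 2, with 5.18% of all genes called without EGFP 1 and 7.17% without EGFP 2. The spread then comes from the OGFRL1 pair alone, and the lone EGFP array is assumed to vary like it. Without EGFP 1 the log2 fold change of Igfbp1 was 1.99 and that of Ghr -1.10; without EGFP 2 they were 0.60 and -0.60. Without either OGFRL1 array 0 members passed in limma, with 4 at an unadjusted p under 0.05 in each case. In the 8 members without overlap, leaving out an array could not turn the direction. Socs2 was at -0.21 without EGFP 1, and Cish at 0.49 without EGFP 2 and 0.07 without OGFRL1 2.

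Scaling each array to its Cre spike-ins moved the median of all genes up by 0.41, so that it stood at 0.45, and the fold changes of the members with it. Igf1 was then at 0.07, Igfbp4 at 0.09, Stat5b at 0.12 and Cish at 0.27, all turned in sign. Ghr was at -0.42, Igfals at -0.52 and Igfbp2 at -0.24, still below 0 but not called. Igfbp1 (1.72, limma adjusted p = 0.0254) and Igfbp3 (0.99, limma adjusted p = 0.0473) passed, where 9.09% of all genes did. Quantile normalization and scaling to equal medians turned no member's sign, but after quantile normalization Igf1 was at -0.13 and Igfbp4 at -0.085.

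**Figure D4:**
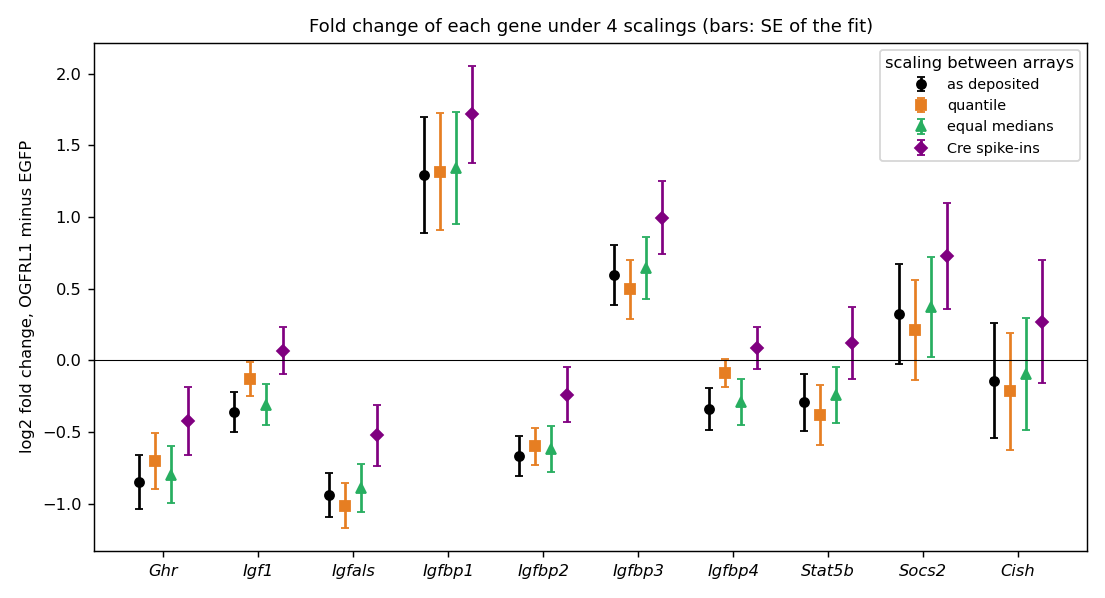
Log2 fold change (OGFRL1 minus EGFP) of each gene, with the SE of the fit as bars, from the signals as deposited and after 3 other scalings between arrays. With the Cre spike-ins as the scale every gene moved up by about the same amount. Igf1, Igfbp4, Stat5b and Cish then crossed 0, Ghr, Igfals and Igfbp2 stayed below it, and Igfbp1, Igfbp3 and Socs2 stayed above.

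Markers of some cell types differed between the groups as well. The summed Kupffer cell and macrophage markers, given above, overlapped, with 2 of the 7 higher and 5 lower. The 6 hepatocyte markers tested (Alb, Ttr, Apoa1, Tat, Cps1 and Hnf4a) all had both OGFRL1 arrays below both EGFP arrays, against 20.5% of all genes. Their fold changes ran from -0.71 to -0.26. They summed to 37609 and 41474 in OGFRL1 livers, against 68620.4 and 48321 in EGFP livers. All 6 are bright. The fold change was below 0 in 95.5% of the 134 genes brighter than 5000, and in 66.2% of the 978 from 1000 to 5000. Hepatocytes are the main source of Ghr, Igf1, Igfals, Igfbp1 and Igfbp2 in liver. The 8 markers of stellate cells and myofibroblasts summed to 2330.4 and 3331 in OGFRL1 livers, against 1668 and 1613 in EGFP livers. Of these 8, 7 lay above without overlap, against 27% of all genes. The 7 sinusoidal endothelial markers summed to 1404.8 and 1487 in OGFRL1 livers, against 1676 and 1561 in EGFP livers. Of these 7, 4 lay below without overlap, against 20.5% of all genes. Lyve1 had a fold change above 0 (0.40 ± 0.43) and Stab2 was near even (-0.03 ± 0.16), both overlapping between the groups. Cycling cell markers (4 tested) summed to 1552 and 1924 in OGFRL1 livers, against 711 and 386 in EGFP livers, and Birc5 was the 1 marker among all these lists that passed the threshold. The 4 cholangiocyte markers tested had fold changes from -0.21 to 0.56, and the lymphocyte markers Cd3e, Cd79a and Ncr1 did not reach the minimum signal. Of the lymphocyte list Nkg7 (-1.07 ± 0.55) and Cd8a (-0.96 ± 0.67) were tested, both dim and overlapping between the groups. Alas2, the 1 erythroid marker tested, had 124 and 96.0 in OGFRL1 livers, against 247 and 375 in EGFP livers (-1.45 ± 0.24, limma adjusted p = 0.0637), so its groups did not overlap. Some markers were near even, among them Stab2 and, of the stellate cell list, Lrat (-0.08 ± 0.17). In bulk tissue, fewer cells of a type and less RNA per cell cannot be told apart, and the part of these shifts in the members' values was not tested.

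The other genes of the pathway had fold changes on both sides of 0. Of 54 genes of growth hormone, IGF and insulin signalling, 42 were tested and 0 passed limma's threshold, a count that says little where 0.511% of all genes passed. An unadjusted p under 0.05 was found for 2 of them, against 15.3% of all genes. Of the 42, 23 had a fold change above 0 and 19 below, with a median of 0.04. Among 11 genes that work beside the growth hormone receptor the fold changes ran from -0.28 to 0.26. Jak2, the receptor's kinase, had 136 and 131 in OGFRL1 livers, against 133 and 125 in EGFP livers, and was thus near even (0.05 ± 0.15). The phosphatase Ptpn11 had 0.26 ± 0.14, Stat3 -0.17 ± 0.13, the adaptor Sh2b1 0.23 ± 0.20 and the inhibitor Socs3 -0.15 ± 0.14.

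Among the other IGF genes 9 were tested and 7 had a fold change above 0 (median 0.30). Igf1r, the receptor that IGF1 binds, had signals of 27.6 and 29.4 in OGFRL1 livers, against 13.4 and 19.3 in EGFP livers. The groups did not overlap, at a dim signal, and the log2 fold change was 0.70 ± 0.30 (limma adjusted p = 0.332). Igf2bp3, an RNA-binding protein of fetal tissue, had 0.44 ± 0.21. Igfbp5 had 35.7 and 132 in OGFRL1 livers, against 19.7 and 40.2 in EGFP livers, and overlapped between the groups (1.19 ± 0.59). Htra1, a secreted protease, had -0.37 ± 0.23.

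Of 17 genes of signal transduction below the insulin and IGF receptors, 8 had a fold change above 0 and 9 below (median -0.02). Grb10, an adaptor that inhibits both receptors, had 136 and 126 in OGFRL1 livers, against 78.3 and 87.1 in EGFP livers. Its groups were well apart, and its log2 fold change of 0.64 ± 0.17 had the lowest adjusted p of the 42 genes, 0.154 by limma. Of the 15 alternatives it passed under 1, the scaling to the Cre spike-ins. Pik3ca had -0.43 ± 0.20, Gsk3b 0.31 ± 0.14 and Tsc2 -0.39 ± 0.20.

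The 6 FOXO1 and insulin-repressed liver genes gave no common direction beside Igfbp1. Pck1, a gluconeogenic enzyme, had 4473 and 3739 in OGFRL1 livers, against 4088 and 5637 in EGFP livers, and overlapped (-0.23 ± 0.20). Irs2 had -0.23 ± 0.30 and Sesn1 0.31 ± 0.22. Trib1 had 38.9 and 32.0 in OGFRL1 livers, against 57.1 and 55.2 in EGFP livers (-0.62 ± 0.22, limma adjusted p = 0.247), so it lay below the EGFP group without overlap. Igfbp1 was the only one of these 7 genes with both OGFRL1 arrays above both EGFP arrays; 27% of all genes tested had that pattern.

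**Figure D5:**
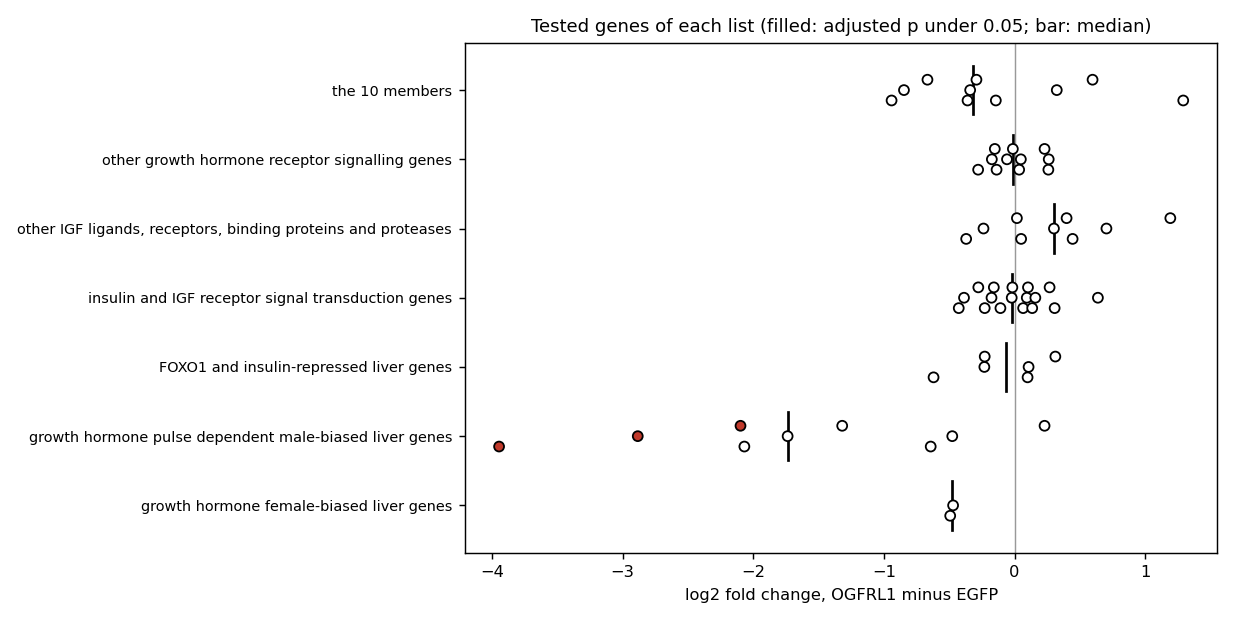
Log2 fold change (OGFRL1 minus EGFP) of every tested gene of the members and of 6 lists around them; filled points passed limma's adjusted p of 0.05 and bars are medians. The members spread from -0.94 to 1.29, and the medians of the 4 lists of signalling, IGF and FOXO1 genes run from -0.06 to 0.30. The male-biased and female-biased lists have medians of -1.74 and -0.48. The 3 filled points are Cyp4a12a, Mup3 and Keg1.

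Genes that need growth hormone pulses in male mouse liver were the part of the surroundings with calls. Of 9 tested, Cyp4a12a (log2 fold change -3.95), Mup3 (-2.88) and Keg1 (-2.10) fell, with limma adjusted p-values of 0.0364, 0.0433 and 0.0491, where 0.151% of all genes were called lower. Both OGFRL1 arrays lay below both EGFP arrays in 7 of the 9, against 20.5% of all genes tested. The median of the list was -1.74. With OGFRL1 1 left out 0 genes of the whole array passed in limma, these 3 included, with 922 at an unadjusted p under 0.05. Egfr, a receptor that growth hormone maintains in mouse liver, had 683 and 1029 in OGFRL1 livers, against 1711 and 2572 in EGFP livers (-1.32 ± 0.26, limma adjusted p = 0.0911). Bcl6, a repressor that counters STAT5, overlapped (-0.48 ± 0.63), as did Lifr (0.23 ± 0.22). Of the female-biased list only Cux2 (-0.49 ± 0.27) and Cyp2b9 (-0.47 ± 0.33) were tested. Cyp4a12a and Mup3 have close paralogs that may bind the same probes, and this list was chosen with results of these arrays known, so its count is not independent evidence of a direction.

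The genes whose values over the 4 arrays were closest to Igfals and Igfbp2, the 2 members with the largest moderated t, were found by the distance between centred log2 values among 11932 genes. For Igfals these were Retsat, a retinol saturase (distance 0.0927), Rgs9 (distance 0.0957) and Scara5, a ferritin receptor (distance 0.114). Retsat had 438 and 462 in OGFRL1 livers, against 794 and 877 in EGFP livers. For Igfbp2 they were Hebp1 (distance 0.0468), the glutathione transferase Gstk1 (distance 0.0473) and Mccc2, an enzyme of leucine breakdown (distance 0.0649). Gstk1 had 1184 and 1344 in OGFRL1 livers, against 1911 and 2167 in EGFP livers. With 4 arrays a likeness of this kind is a description of these samples.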

How the data were processed

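Each array was hybridised with biotinylated cRNA from 100 ng of liver RNA, per the labels' protocols. MAS5 is the tool named, per the submitters' processing notes, with its version not given in the sources used here. The deposited values are MAS5 signal intensities, 1 per probe set and array, not logged. Median signals were 11.6 to 12.5. The mean after trimming 2% at each end was 100 on all 4 arrays, so these values had already been scaled to a common level. Of 45101 probe sets, 34945 had 1 platform symbol (18193 genes), 932 several, 9160 none, and 64 were controls. Only the first were fitted.

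From them log2(signal + 3.51) was computed (3.51 is the 25th percentile of all values; fold changes of dim genes are understated). Each gene was taken at its brightest probe set and kept at a mean signal of at least 11.6, the median probe set. The group difference was fitted by limma 3.58.1 under R 4.3.3 (lmFit; eBayes, whose prior variance followed mean intensity; 2-sided; 2 residual and 4.48 prior degrees of freedom) with Benjamini-Hochberg adjustment over 11942 genes. The code was tested on simulated data. Python 3.11.15 drew the figures with matplotlib 3.10.9.

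All 10 members are named, and of other lists those past the threshold or up to 4 with the largest moderated t; Jak2, Lifr, Bcl6, Egfr and the marker genes were added after their values were seen. The members and lists were chosen with earlier results of these data known. Genes of the lists without a single-symbol probe set were not analysed here.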

Additional observations from a re-analysis of the deposited data

How the results depend on the processing

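The members were recomputed under 15 alternatives, 150 values in all: 143 kept their direction and 11 passed the threshold. The number of members past the threshold, 0 as reported, was 2 with scaling to the Cre spike-ins and 0 to 5 with each array left out in turn. For their probe sets it was 1 and 0 to 6, and for the other pathway genes 1 and 0 to 1 (Grb10 with the Cre scaling, Ptpn6 without EGFP 2). The reversed values were Igf1 at 0.066, Igfbp4 at 0.086, Stat5b at 0.12 and Cish at 0.27 with the Cre scaling, and, with an array left out, Socs2 at -0.21 and Cish at 0.07 and 0.49. Over the arrays left out Socs2 ran from -0.21 to 0.86 and Cish from -0.77 to 0.49. The cause was not tested.

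Over all genes, 61 calls became 4 with quantile normalization, 1086 with the Cre scaling (98.2% of them higher, against 70.5%), 94 with 4 times the pseudocount, 21 under the stricter filter (mean signal 46.6), 13 as the mean over probe sets, and 0 both when no filter was set and when eBayes had no trend (limma, 2179 and 1654 at an unadjusted p under 0.05). With an array left out they ran from 0 to 856: 0 without OGFRL1 1 (922 unadjusted), 2 without OGFRL1 2, 619 without EGFP 1 and 856 without EGFP 2. Of the called genes 25% were higher after quantile normalization. With the replicate number as a block 59 genes and 0 members passed (4 members at an unadjusted p under 0.05). Arrays of the same number deviated from their group means with a correlation of -0.28 over 11942 genes. With 2 arrays a group its sign follows from how the arrays are numbered, so it cannot show whether they are pairs. No label ties a number to a single mouse or day, so the numbers were not taken as pairs. The array number limits every value here, and Socs2 and Igfbp3 lie at dim signals.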
